A study of Mus musculus with 64 samples.

Results

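The 106 genes described here are the well expressed long intergenic noncoding RNAs (lincRNAs) of the mouse heart. The annotation used for counting classed them as transcripts that lie between protein-coding genes and have no reading frame, though some overlap such a gene. They were chosen from the 722 lincRNA genes among the 20637 genes of the deposited table as those with a mean level of at least 10 CPM (the depth-scaled read count of the deposited table, under the authors' name for it) over the 4 libraries of at least 1 group, leaving out H19, Meg3 and genes of the X and Y chromosomes. A further 598 lincRNAs fell below that level. By name or chromosome, 4 that met the level were left out, and genes left out in the same way below the level are in neither count. The level itself therefore chose the genes, and where a gene was highest is given as a description without a test.

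RNA was measured in mice of the CD1 strain, none labelled with a transgene or deletion, 3 days after a sham operation or a myocardial infarction (MI) made on postnatal day 1 (P1) or on day 56 (P56). The 4 populations were cardiomyocytes from the lower layer of a Percoll gradient and fibroblasts (CD90), leukocytes (CD45) and endothelial cells (CD31) sorted by surface antigen from the upper layer. Each of the 16 groups (4 populations, 2 ages, 2 operations) had 4 libraries, 64 in all. The adults were males. Each neonatal preparation combined 6 ventricles. Whether the 4 libraries of a group stand for different preparations is not labelled, and p-values therefore describe library-to-library spread, which may be technical. The neonatal and adult hearts were also taken apart in different ways, so age and isolation cannot be told apart. In bulk samples, fewer cells of a type and less RNA per cell cannot be told apart either.

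Long intergenic noncoding RNAs are transcribed and often spliced like messenger RNAs, but act, where a role is known, as RNA: Malat1 and Neat1 are held in nuclear speckles and paraspeckles, and other members are precursors from which microRNAs (miRNAs) or small nucleolar RNAs (snoRNAs) are cut. Some genes first annotated as lincRNAs were later found to encode very short proteins, several of them in striated muscle. LincRNAs are known to be more restricted to single cell types than messenger RNAs, which makes sorted cell populations a useful place to measure them.

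Sequences are shown for the members whose products carry the results below: the reading frames of 2 of the 3 members with a coding model in GENCODE M21 (6030408B16Rik, with frames of 89 and 144 codons, is not printed), snoRNAs cut from 3 hosts, miRNAs cut from 6 hosts, and 2 promoters. Frames and snoRNAs were read from GENCODE M21 on GRCm38, miRNAs and promoters from RefSeq on GRCm38.p6. Gm34302 encodes DWORF, a micropeptide that stimulates the calcium pump of the sarcoplasmic reticulum, in a frame of 34 codons before the stop spread over chr3:63481290-63483827 on the minus strand. The member 5430416O09Rik, named Spaar in RefSeq, encodes a small lysosomal membrane protein that dampens amino acid sensing, in 75 codons at chr4:43730965-43731192 on the plus strand. The start and stop codons are in capitals.
Gm34302: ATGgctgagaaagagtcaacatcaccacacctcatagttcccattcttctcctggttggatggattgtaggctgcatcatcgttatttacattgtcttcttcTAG
5430416O09Rik: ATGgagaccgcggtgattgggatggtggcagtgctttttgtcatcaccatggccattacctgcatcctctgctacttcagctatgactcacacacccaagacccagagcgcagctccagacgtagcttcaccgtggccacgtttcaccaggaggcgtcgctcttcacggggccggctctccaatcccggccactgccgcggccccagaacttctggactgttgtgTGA

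Box C/D snoRNAs guide the methylation of ribosomal and other RNAs and are cut from the introns of host genes. Snord87 lies in Snhg6 (chr1:9942463-9942549, minus strand), Snord99 in Snhg12 (chr4:132310691-132310764, plus strand) and Snord123 in Snhg18 (chr15:32241853-32241923, minus strand). The C box TGATGA and the D box CTGA are in capitals, written in DNA letters.
Snord87: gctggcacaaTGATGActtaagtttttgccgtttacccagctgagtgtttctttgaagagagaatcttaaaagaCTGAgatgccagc
Snord99: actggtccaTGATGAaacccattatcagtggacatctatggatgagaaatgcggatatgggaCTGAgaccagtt
Snord123: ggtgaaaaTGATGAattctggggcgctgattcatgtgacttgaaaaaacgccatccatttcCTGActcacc

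A total of 47 mature miRNAs from RefSeq lay inside 8 members on their own strand, with 44 distinct seeds (bases 2 to 8, in capitals), the bases that pair with target messages. Mirg, in the imprinted Dlk1-Dio3 region of chromosome 12, held 26 of them and Mir17hg on chromosome 14 held 11. Within Mir17hg, miR-17-5p and miR-20a-5p share 1 seed and miR-19a-3p and miR-19b-3p share another; within Mirg, miR-453 and miR-496a-5p share a seed. The other 4 hosts shown held 1 or 2 each and lie on chromosomes 11 (Mir142hg), 4 (E130102H24Rik), 7 (2900076A07Rik) and 13 (6720427I07Rik).
miR-17-5p: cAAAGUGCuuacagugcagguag
miR-20a-5p: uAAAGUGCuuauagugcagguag
miR-18a-5p: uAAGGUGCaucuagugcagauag
miR-19a-3p: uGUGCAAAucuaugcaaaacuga
miR-19b-3p: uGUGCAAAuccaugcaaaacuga
miR-92a-3p: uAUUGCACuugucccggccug
miR-453: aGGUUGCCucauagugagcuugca
miR-496a-5p: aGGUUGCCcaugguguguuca
miR-410-3p: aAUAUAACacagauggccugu
miR-142a-5p: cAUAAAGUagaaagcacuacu
miR-142a-3p: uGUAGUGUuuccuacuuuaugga
miR-101a-3p: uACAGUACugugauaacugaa
miR-1839-5p: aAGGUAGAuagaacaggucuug
let-7d-5p: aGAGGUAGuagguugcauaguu

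Lincpint, a noncoding RNA known as a target of p53, and AW112010, known for its induction in inflammatory immune cells, had the largest increases with age in both fibroblasts and endothelial cells, and their promoters are shown (250 bases before to 50 after the RefSeq start). RefSeq promoters were matched for 44 of the 106 members. The Lincpint window (chr6:31218425-31218724, minus strand) holds the palindromic E-box CACGTG 49 bases before the start, in capitals; CACGTG was in 4 of the 44 member promoters (9.09%) and in 7.15% of all 32851 promoters. The AW112010 window (chr19:11050517-11050816, minus strand) holds a match to the NF-kB motif 70 bases before the start, in capitals; searched on both strands, that motif was in 1 of 44 member promoters (2.27%) and in 8.46% of all. A match is a string of letters in this window and was not tested for binding.
Lincpint: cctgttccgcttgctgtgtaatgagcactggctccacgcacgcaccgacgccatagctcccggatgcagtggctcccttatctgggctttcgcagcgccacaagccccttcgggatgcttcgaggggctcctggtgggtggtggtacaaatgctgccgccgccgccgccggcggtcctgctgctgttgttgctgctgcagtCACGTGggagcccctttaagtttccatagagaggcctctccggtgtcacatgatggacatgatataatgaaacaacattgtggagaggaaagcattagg
AW112010: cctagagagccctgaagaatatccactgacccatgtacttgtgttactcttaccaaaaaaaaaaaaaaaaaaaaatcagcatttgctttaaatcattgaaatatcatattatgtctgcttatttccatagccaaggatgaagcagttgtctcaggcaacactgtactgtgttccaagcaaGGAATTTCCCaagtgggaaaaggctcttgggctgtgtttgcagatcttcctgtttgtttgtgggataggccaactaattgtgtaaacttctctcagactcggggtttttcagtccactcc

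The libraries held 9587688 to 27542141 reads recovered from the deposited values (median 20592608), so that 1 read stood for 0.0340 to 0.136 CPM. The 106 members took 0.575% to 4.64% of the reads of a library, but without Malat1, Neat1, Gm26917 and Yam1 the share was 0.0539% to 0.230%. Ribosomal 18S RNA left after depletion ranged from 0.0133% to 26.1% of reads (median 0.105%) and passed 5% in 7 libraries. Mitochondrial ribosomal RNA took 0.628% to 38.2% of reads (median 2.76%), and no setting below left out libraries by it. Summed over the marker lists, 14 cardiomyocyte markers reached 182782 to 213745 CPM in P56 sham cardiomyocytes and 14 leukocyte markers 4318 to 7729 CPM in P56 sham leukocytes against 16.9 to 35.5 CPM in fibroblasts of the same group. The sham leukocyte libraries held more cardiomyocyte than leukocyte marker RNA at both ages. At P56 cardiomyocyte markers summed to 74987 to 205982 CPM in sham and 5188 to 19036 CPM after MI. This is given again beside the results it moves with. At P1 they summed to 18413 to 24130 CPM in sham, beside leukocyte markers of 3504 to 5545 CPM, and to 5543 to 15288 CPM after MI. The library P56 MI cardiomyocyte 3 stood apart from its group for several members, and its values are given with each of them.

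By population, 35 members were highest in endothelial cells, 28 in fibroblasts, 24 in cardiomyocytes and 19 in leukocytes (mean of the 4 groups of a population). The highest single group was at P56 for 84 members (79.2%, against 68.9% of the 11540 protein-coding genes at the same level) and a sham group for 72 (67.9%, against 52.3%). P56 sham fibroblasts were the highest group for 22 members and P56 sham endothelial cells for 18. Only 8 members reached 10 CPM in all 16 groups (7.55%, against 49.6% of protein-coding genes), while 17 did so in 1 group (16.04%, against 3.41%). The share at least 2-fold above the next population was close in both classes, 36.8% and 36.1%. The 2 classes also differed in level, and their shares were not compared at matched levels: the median level in the highest group was 22.1 CPM for the members and 69.6 CPM for the protein-coding genes.

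**Figure D1:**
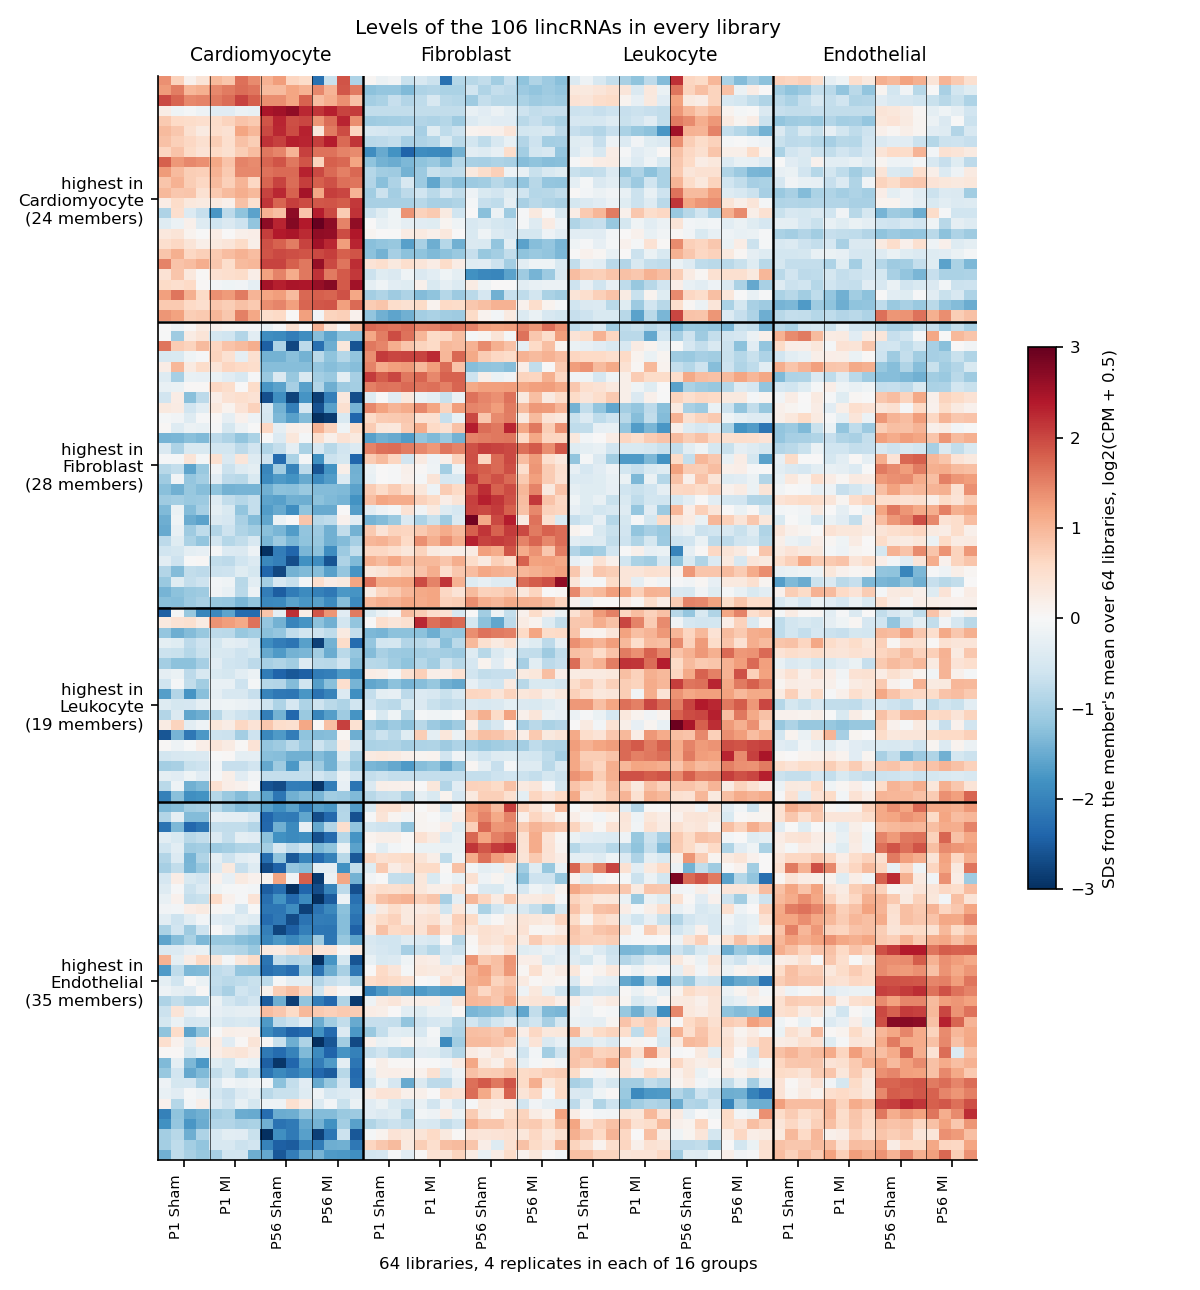
Level of the 106 lincRNAs in the 64 libraries, each gene scaled to its own mean and standard deviation of log2(CPM + 0.5) over all libraries and ordered by the population in which the gene was highest (24 cardiomyocyte, 28 fibroblast, 19 leukocyte and 35 endothelial genes). Columns are libraries grouped by population, age and operation, 4 per group.

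The widest gap to the next population was that of a leukocyte gene. Gm26522, which overlaps Ctsc on the opposite strand, had a mean of 16.7 CPM in leukocytes and at most 0.403 CPM in another population, a ratio of 41.3. Mir142hg, the precursor of the blood-cell miRNA miR-142, had 7.503 CPM in leukocytes and 0.0228 to 0.255 CPM elsewhere. AI662270 (ratio 17.2) and AI504432, 1434 bases from the potassium channel gene Kcna3 (ratio 10.1), were the other leading leukocyte members. Among fibroblast members 6030408B16Rik led with a ratio of 23.5, followed by Gm26945 (8.02) and Mirg (7.67), which lie close together in the Dlk1-Dio3 region. Gm34302 led the cardiomyocyte members with 106 CPM and a ratio of 24.6, and 9330158H04Rik (6.35), which overlaps the muscarinic receptor gene Chrm2 on the opposite strand, came next. In endothelial cells the leading ratios were 5.27 for AW112010 and 5.21 for A330009N23Rik.

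Members were tested in a comparison only where they reached 10 CPM in a group outside it, and the rest were set aside. That outside group could be of the same age or the same cells. Lsmem2, for example, reached 10 CPM only in P56 sham and P56 MI cardiomyocytes and was tested with age in cardiomyocytes. The choice by level could thus still favour 1 direction, so shares of rises and falls set beside those of all genes are descriptions. The main test was limma on log2(CPM + 0.5), with p-values adjusted over all genes of a population and calls made at an adjusted p under 0.05. With age in sham hearts, 53 of 89 tested members rose and 18 fell in fibroblasts (79.8% called, against 67% of all genes, 34.8% higher and 32.2% lower), and 54 of 95 rose and 16 fell in endothelial cells (73.7%, against 62.9% of all genes, 33.6% higher and 29.3% lower). In leukocytes 46 of 103 rose and 26 fell (69.9%, against 67.1% of all genes, 32.5% higher and 34.5% lower). In cardiomyocytes 22 of 97 rose and 39 fell (62.9%, against 70.4% of all genes, 33.3% higher and 37% lower). With quantile normalization 28 rose and 23 fell. Without the libraries over 5% 18S 23 rose and 28 fell, so no direction is given for that population. Of the 22 tested there and highest in cardiomyocytes, 17 rose and 0 fell, and of the other 75, 5 rose and 39 fell. Being highest in cardiomyocytes was judged from means that include the cardiomyocyte groups compared here. The split is therefore partly built in and is a description. In these libraries fibroblast markers summed to 3224 to 7097 CPM in P1 sham and 379 to 1118 CPM in P56 sham. Endothelial markers summed to 2562 to 4072 and 1117 to 1810 CPM, and leukocyte markers to 203 to 794 and 49.3 to 206 CPM. Their part in the falls was not tested. The median log2 difference over tested members was 0.58 in fibroblasts, 0.46 in endothelial cells and 0.25 in leukocytes, against 0.03, 0.05 and -0.01 over all genes. The members 2310015A10Rik, 2900076A07Rik, 4632404H12Rik, A430046D13Rik, AW112010, Gm5532 and Lincpint rose in all 4 populations, 7 of the 79 tested in all 4 (8.86%, against 8.34% of all genes). Gm17275, Gm26802, Gm26945, Mir17hg, Snhg12 and Snhg6 fell in all 4, 6 of 79 (7.59%, against 11.3% of all genes). Of the 7 that rose, all but AW112010 and Lincpint were highest in cardiomyocytes. The summed cardiomyocyte markers were also higher at P56 in the sorted populations, without overlap. They summed to 281 to 507 CPM in P1 sham and 2824 to 5961 CPM in P56 sham fibroblasts, to 18413 to 24129.9 and 74987 to 205982 CPM in leukocytes and to 662 to 2419 and 9155 to 20857 CPM in endothelial cells, and their part in the rises of members was not tested.

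**Figure D2:**
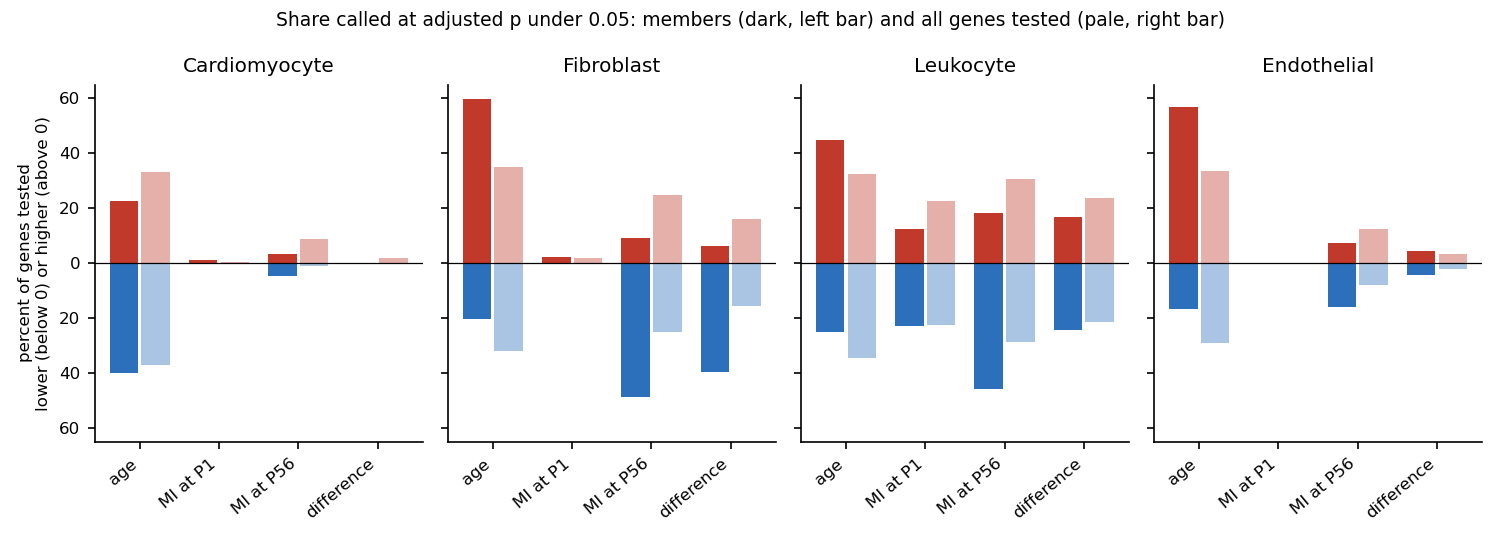
Percent of genes called higher (upper bars) or lower (lower bars) at an adjusted p under 0.05 in each population and comparison, for the tested members (dark, left bars) and for all genes tested (pale, right bars). In fibroblasts with age 53 of 89 members were higher, and after MI at P56 43 of 88 were lower.

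Malat1 (chr19:5795690-5802672, a single exon on the minus strand) was above 10 CPM in every group. In fibroblasts the P1 sham libraries held 7260.1, 9259.7, 7398 and 11177 CPM, the P56 sham libraries 25262, 22861, 21444 and 25129 CPM and the P56 MI libraries 10929.5, 16077, 10803 and 13002 CPM. The P56 sham libraries were all above both other groups. Malat1 rose with age by 1.45 ± 0.262 (log2, ± SE, adjusted p = 0.00012, limma) and fell after MI at P56 by 0.91 ± 0.262 (adjusted p = 0.00837); the second call was lost with quantile normalization, where the difference was 0, without the filter on low genes, and when only the groups compared were fitted. Cardiomyocytes went the other way with age. Their P1 sham libraries held 6375, 10595, 4229 and 5642 CPM and their P56 sham libraries 1791, 2898, 1640.0 and 3047 CPM, with no overlap, a fall of 1.49 ± 0.458 (adjusted p = 0.00738) that became 1.13 lower with adjusted p = 0.0732 without the libraries over 5% 18S. After MI at P56 the cardiomyocyte libraries held 1592, 2545, 11222 and 1757 CPM, of which replicate 3 lay above every P1 sham library and the other 3 within or below the range of the P56 sham libraries. The comparison with age and the comparison after MI at P56 share the P56 sham libraries, here and below, so they are not independent.

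Neat1 (chr19:5824708-5845478), the scaffold of paraspeckles, lies beside Malat1 on the same strand. In fibroblasts it stood at 391, 460.1, 393 and 581 CPM in P1 sham libraries and at 1540.5, 617, 1083 and 683 CPM after MI at P1. Every P1 MI library was above every P1 sham library. It rose after MI at P1 in fibroblasts (1.02 ± 0.244, adjusted p = 0.035); the call was lost when any 1 of 5 libraries was left out, and without the 3 fibroblast libraries over 5% 18S it was 1.06 ± 0.232 (adjusted p = 0.0223). At P56 the sham libraries held 1467, 1797, 1733 and 1479.8 CPM and the MI libraries 962, 1625, 1040.3 and 1139.7 CPM, a difference of -0.47 ± 0.244 (adjusted p = 0.121) with overlapping libraries; without the libraries over 5% 18S it was -0.47 ± 0.180 and passed the test (adjusted p = 0.0429). The MI change at P56 was lower than at P1 by 1.49 ± 0.345 (adjusted p = 0.00426).

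Gm26917 and Yam1 lie side by side at chr17:39843013-39848788, next to the 18S ribosomal RNA gene copy Rn18s-rs5, and their levels are given beside that of 18S. In leukocytes Gm26917 held 10777, 13430.3, 19180.4 and 22765 CPM in P1 sham, 4234, 3366, 5582 and 4024 CPM in P56 sham and 17742, 22532, 10975 and 12493 CPM in P56 MI libraries. The P56 sham libraries were below both other groups. Gm26917 fell with age by 1.91 ± 0.371 (adjusted p = 0.00027) and rose after MI at P56 by 1.85 ± 0.371 (adjusted p = 0.00046), and Yam1 did likewise (-2.06 and 1.93). Without the libraries over 5% 18S the Gm26917 values were -1.73 (adjusted p = 0.00165) and 1.78 (adjusted p = 0.00171). In cardiomyocytes the direction with age was the opposite: 1337, 7416, 3401 and 1901 CPM at P1 sham and 14123, 6355, 36905 and 9095 CPM at P56 sham, with P1 replicate 2, in which 18S took 16.6% of reads, inside the P56 range. That increase, 2.22 ± 0.564 (adjusted p = 0.00182), was 0.64 and no longer called with quantile normalization. Whether reads of ribosomal precursors entered these 2 genes was not tested.

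**Figure D3:**
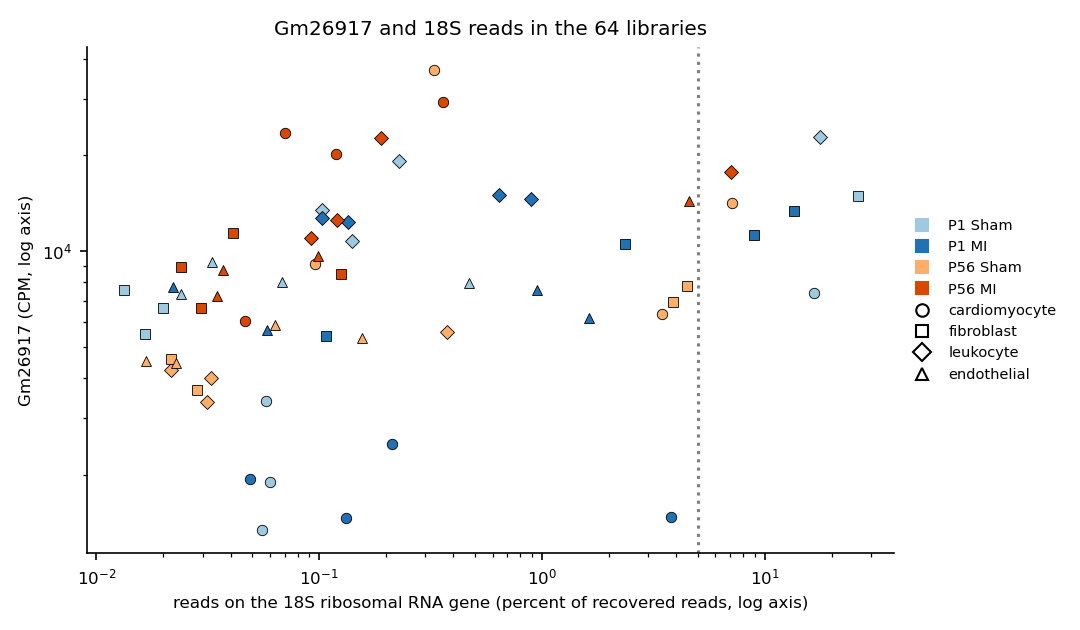
Level of Gm26917 (CPM, log axis) against the share of 18S RNA among reads (percent, log axis) in each of the 64 libraries; colour gives age and operation, marker shape the population, and the dotted line marks 5% of reads. The 7 libraries right of the line hold 7416 to 22765 CPM, and the highest value, 36905 CPM, is a P56 sham cardiomyocyte library left of the line.

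Protein-coding models were found in GENCODE M21 for 3 members, Gm34302, 5430416O09Rik and 6030408B16Rik, and RefSeq lists 5 as protein-coding. Gm34302 had the largest change with age of the members tested: P1 sham cardiomyocytes held 2.72, 1.099, 1.39 and 1.01 CPM and P56 sham cardiomyocytes 256, 289, 388 and 173 CPM. Every P56 library was far above every P1 library. The difference was 7.08 ± 0.269 (log2, adjusted p = 4.9e-13). After MI at P56 the libraries held 137, 204, 108 and 128 CPM, and the top MI library lay above the lowest sham library. That fall of 0.92 ± 0.269 (adjusted p = 0.0357) was lost with a pseudocount of 0.1, with quantile normalization, with a replicate block, when only the groups compared were fitted, without libraries over 5% 18S and when any 1 of 5 libraries was left out.

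Spaar (5430416O09Rik, chr4:43730034-43734534) was highest in endothelial cells. Its P1 sham libraries held 18.5, 21.6, 19.9 and 19.7 CPM, its P56 sham libraries 64.9, 64.1, 62.4 and 61.6 CPM and its P56 MI libraries 39.8, 42.5, 31.8 and 46.7 CPM. The 3 groups did not overlap. Spaar rose with age by 1.64 ± 0.0992 (adjusted p = 8.9e-10) and fell after MI at P56 by 0.66 ± 0.0992 (adjusted p = 0.00027). It also fell after MI at P56 in fibroblasts (-1.22, adjusted p = 2.5e-05) and leukocytes (-1.36, adjusted p = 0.00045).

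The RefSeq protein-coding members 1810058I24Rik and C330006A16Rik separated the ages in cardiomyocytes. 1810058I24Rik stood at 26.4, 28.1, 23.1 and 21.1 CPM in P1 sham and 90.998, 111, 117 and 101 CPM in P56 sham libraries. C330006A16Rik stood at 30.6, 34.1, 40.9 and 30.1 CPM and 174, 139, 180.2 and 147 CPM. Neither pair of groups overlapped, and the genes rose by 2.07 (adjusted p = 3.8e-09) and 2.22 (adjusted p = 5.4e-08). In fibroblasts both fell with age, by 0.45 (adjusted p = 0.00199) and 0.28 (adjusted p = 0.0328); the second call was lost when any 1 of 5 libraries was left out.

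Of the 5 members on the list of miRNA host genes, Mir17hg fell with age in all 4 populations, Mirg in all but endothelial cells, and Lincpint rose in all 4; Mir143hg rose with age in fibroblasts and endothelial cells and Mir142hg in leukocytes. The list's calls with age were 3 of 4 tested in cardiomyocytes, 4 of 4 in fibroblasts, 4 of 5 in leukocytes and 3 of 4 in endothelial cells, against 70.4%, 67%, 67.1% and 62.9% of all genes. No RefSeq miRNA was matched to Lincpint, and Mir143hg was not searched. Mir17hg, whose miRNAs are known to promote cell division, held 7.85, 8.03, 10.1 and 10.7 CPM in P1 sham and 1.12, 1.13, 1.55 and 0.491 CPM in P56 sham cardiomyocytes. The groups did not overlap, and the fall was 2.66 ± 0.262 (adjusted p = 5.4e-08). The endothelial markers in these cardiomyocyte libraries were also lower at P56, as given above, and their part was not tested. It fell with age in the other populations as well, by 0.74 to 1.26. In leukocytes the MI change of Mir17hg differed between the ages. P1 libraries went from 17.2, 13.5, 17.7 and 18.2 CPM in sham to 10.2, 8.09, 9.85 and 13.1 CPM after MI, with no overlap. P56 libraries went from 6.88, 7.83, 5.63 and 6.25 CPM to 12.7, 7.58, 8.68 and 15.3 CPM, with 1 MI library inside the sham range. Mir17hg fell at P1 by 0.68 (adjusted p = 0.0103) and rose at P56 by 0.65 (adjusted p = 0.00922), and the 2 changes differed by 1.33 ± 0.277 (adjusted p = 0.00127). The 20 genes of the G2 and M phases summed to 1156 to 1466 CPM in P1 sham and 1052 to 1229 CPM in P1 MI leukocytes. At P56 they summed to 297 to 488 CPM in sham and 879 to 1433 CPM after MI. Mir17hg was highest in endothelial cells. The endothelial marker Cdh5 had leukocyte means of 790 CPM in P1 sham and 106 CPM in P1 MI. At P56 its means were 52.5 CPM in sham and 21.8 CPM after MI. The part of these genes in the Mir17hg values was not tested.

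Mirg and Gm26945 lie in the Dlk1-Dio3 region, whose noncoding RNAs are known to come from the maternal copy and to be high before birth. Mirg in leukocytes held 18.6, 12.6, 11.4 and 9.43 CPM in P1 sham and 0.391, 1.53, 1.24 and 1.12 CPM in P56 sham libraries, a fall of 3.12 ± 0.325 (adjusted p = 4.5e-07) with no overlap. It fell after MI at P1 to 8.097, 5.31, 3.87 and 6.51 CPM (change -1.07, adjusted p = 0.0137). At P56 it was higher after MI, 1.79, 3.71, 3.06 and 1.02 CPM, with overlap (change 0.84, adjusted p = 0.0354, lost when any 1 of 4 libraries was left out). Mirg was highest in fibroblasts. Fibroblast markers in the same leukocyte libraries summed to 3691 to 5994 CPM in P1 sham and 4549 to 7927 CPM in P1 MI. At P56 they summed to 572 to 1738 CPM in sham and 2373 to 7311 CPM after MI, and their part was not tested. Gm26945 in fibroblasts held 16.4, 40.4, 35.4 and 36.5 CPM in P1 sham and 11.7, 7.09, 6.04 and 5.35 CPM in P56 sham libraries. Replicate 1 was the lowest at P1 and the highest at P56, and the groups stayed apart (fall of 2.00, adjusted p = 0.00017).

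Mir142hg in leukocytes rose after MI at P1, from 4.71, 3.89, 2.07 and 3.25 CPM to 9.26, 9.15, 8.36 and 9.01 CPM (1.29 ± 0.1997, adjusted p = 8.1e-05). All 4 MI libraries were above the sham libraries. At P56 it held 5.14, 8.14, 5.67 and 5.82 CPM in sham and 11.2, 9.18, 10.2 and 15.03 CPM in MI libraries, the only group in which it reached 10 CPM, so that comparison is a description. The summed leukocyte markers were 3504 to 5545 CPM in P1 sham, 10969 to 12364 CPM in P1 MI, 4318 to 7729 CPM in P56 sham and 8769 to 11155 CPM in P56 MI libraries, and their part in Mir142hg was not tested.

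E130102H24Rik, the host of miR-101a, held 2.99, 2.28, 2.85 and 2.996 CPM in P1 sham fibroblasts, 18.2, 14.6, 17.6 and 19.3 CPM in P56 sham and 4.497, 7.91, 4.45 and 3.33 CPM in P56 MI fibroblasts. The P56 sham libraries were above both other groups, and replicate 2 was the highest of the MI libraries. The gene rose with age by 2.45 ± 0.181 (adjusted p = 6.2e-09) and fell after MI at P56 by 1.75 ± 0.181 (adjusted p = 1.3e-06), while its P1 MI libraries, 2.55, 2.54, 2.53 and 2.54 CPM, lay inside the P1 sham range. 2900076A07Rik, the host of miR-1839, rose with age in each of the 4 populations and fell after MI at P56 in each, by 0.58 to 2.28, the fall in cardiomyocytes being lost under several settings. Its leukocyte libraries held 45.9, 17.7, 17.7 and 23.8 CPM in P56 sham and 5.61, 5.13, 4.41 and 3.46 CPM in P56 MI, without overlap. The gene was highest in cardiomyocytes, and the cardiomyocyte markers in the same libraries summed to 74987 to 205982 CPM in P56 sham and 5188 to 19036 CPM in P56 MI, with P56 sham replicate 1 the highest for both; their part was not tested.

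Of the 4 Snhg members, Snhg6 and Snhg12 fell with age in all 4 populations (Snhg6 by 0.32 to 1.19, Snhg12 by 0.74 to 0.90), Snhg18 fell in fibroblasts and leukocytes (the leukocyte call being lost without P1 sham replicate 3), and Snhg20 rose in leukocytes and endothelial cells. Snhg12 in leukocytes held 15.5, 16.2, 19.5 and 16.8 CPM in P1 sham, 10.01, 10.03, 7.65 and 10.99 CPM in P1 MI, 9.39, 10.7, 9.13 and 10.4 CPM in P56 sham and 10.9, 11.2, 12.5 and 14.1 CPM in P56 MI libraries. The P1 sham libraries were above the other 3 groups. It fell after MI at P1 by 0.79 ± 0.124 (adjusted p = 9.5e-05), and the MI change at P56 was higher by 1.07 ± 0.176 (adjusted p = 0.0002). The endothelial marker Cdh5 had means of 790 CPM in the P1 sham and 106 CPM in the P1 MI leukocyte libraries, and its part was not tested.

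In fibroblasts Snhg12 went from 13.1, 13.8, 15.4 and 13.2 CPM in P56 sham to 23.96, 17.9, 16.2 and 20.96 CPM in P56 MI libraries, an increase of 0.48 ± 0.119 (adjusted p = 0.00319). Snhg6 went from 11.3, 10.001, 12.2 and 11.3 CPM to 19.7, 15.3, 15.5 and 14.9 CPM (0.52 ± 0.1005, adjusted p = 0.00046). Neither pair of groups overlapped, and replicate 1 was the highest MI library for both genes. Snhg6 also rose after MI at P56 in leukocytes and endothelial cells, the endothelial call being lost under several settings. The G2 and M phase genes summed to 22.04 to 99.8 CPM in P56 sham and 479 to 1607 CPM in P56 MI fibroblasts, and their part was not tested.

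Lincpint (chr6:31093559-31218474) had the largest rise in fibroblasts, from 0.442, 0.724, 0.606 and 0.409 CPM in P1 sham to 53.4, 57.2, 60.4 and 61.6 CPM in P56 sham libraries. The adult libraries lay close together and far above every neonatal one. The difference was 5.82 ± 0.2002 (adjusted p = 1.2e-12). In endothelial cells it went from 1.23, 1.68, 1.704 and 1.93 CPM to 37.6, 32.5, 39.2 and 35.8 CPM (4.11 ± 0.175, adjusted p = 2.1e-11), and in cardiomyocytes and leukocytes it rose by 2.41 and 1.27. Gm13833, which lies inside the Lincpint locus on the opposite strand, had means of 0.0958 CPM in P1 sham and 11.7 CPM in P56 sham fibroblasts; as those adult fibroblasts were its only group at 10 CPM, no test is given.

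AW112010 (chr19:11047617-11050566) was at 0.06799, 0.2896, 0.499 and 0.409 CPM in P1 sham fibroblasts, in 1 of them under the level of 3 reads, and at 18.2, 12.2, 15.9 and 19.1 CPM in P56 sham fibroblasts (4.38 ± 0.259 on the log2(CPM + 0.5) scale, adjusted p = 5.1e-10). Endothelial cells held more of it at both ages, 7.21, 4.52, 5.31 and 6.23 CPM and 69.1, 65.01, 73.1 and 85.3 CPM (3.55 ± 0.147, adjusted p = 1.5e-11). No neonatal library reached an adult one in either population. AU020206, on chromosome 7, rose in endothelial cells from 4.78, 5.299, 4.38 and 5.28 CPM to 24.1, 44.03, 44.4 and 42.3 CPM (2.81 ± 0.274, adjusted p = 1.7e-07), with replicate 1 the lowest adult library.

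Gm26802 (chr7:19298260-19300770) had the largest fitted fall of the tested members in each population. It lies 1951 bases from Fosb, a subunit of the AP-1 factor known for rapid induction, on the same strand. P1 sham fibroblasts held 15.4, 9.56, 10.9 and 11.6 CPM and P56 sham fibroblasts 0, 0.0435, 0.0576 and 0 CPM, all under the level of 3 reads. The fitted fall of 4.54 ± 0.411 (adjusted p = 6.4e-08) depends on the added 0.5 at such levels. Cardiomyocytes held 2.76, 8.199, 2.96 and 4.45 CPM at P1 sham and 0 in all 4 P56 sham libraries. Gm26802 was highest in fibroblasts, and the fibroblast markers in these cardiomyocyte libraries were also lower at P56, as given above. Their part was not tested. Fosb had group means of 608 CPM in P1 sham and 18.8 CPM in P56 sham fibroblasts, and of 161 and 2.25 CPM in cardiomyocytes. AI427809, a fibroblast member, fell from 16.8, 12.9, 15.4 and 10.1 CPM to 0.711, 2.13, 1.32 and 1.499 CPM (-2.93 ± 0.2201, adjusted p = 7.3e-09), with no overlap.

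**Figure D4:**
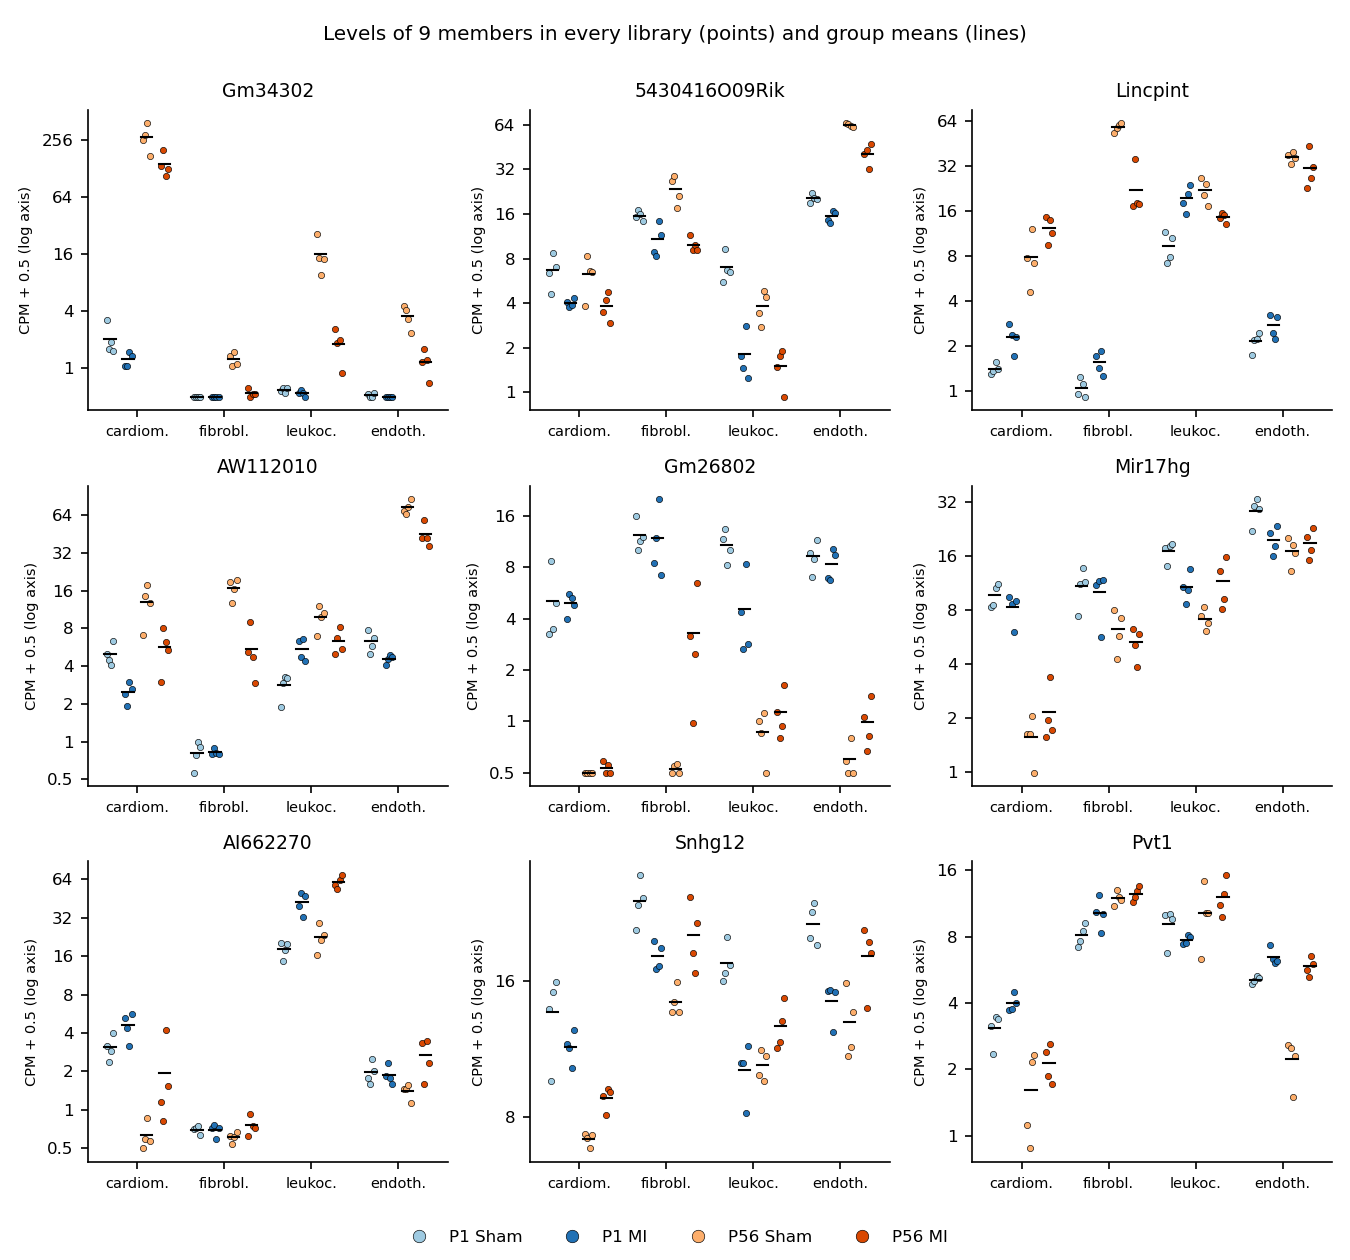
CPM of 9 members in each of the 64 libraries (log axis after adding 0.5), by population, with age and operation as colour, points for the 4 libraries of a group and a line at their mean. Lincpint in fibroblasts lies between 0.409 and 1.35 CPM in the 8 neonatal libraries, 53.4 to 61.6 CPM in P56 sham and 16.7 to 35.2 CPM in P56 MI libraries.

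After MI at P1 few members changed outside leukocytes. In leukocytes 13 of 105 tested members rose and 24 fell (35.2%, against 45.2% of all genes, 22.6% higher and 22.6% lower). Of the 24 members highest in cardiomyocytes 1 rose and 5 fell there, and of the other 81 members 12 rose and 19 fell. The cardiomyocyte markers in these libraries went from 18413 to 24130 CPM in sham to 5543 to 15288 CPM after MI, and their part was not tested. In fibroblasts 2 of 91 rose (2.2%, against 2.37% of all genes, 1.99% higher and 0.375% lower). In cardiomyocytes 1 of 99 rose (1.01%, against 0.343% of all genes, 0.285% higher and 0.0582% lower). In endothelial cells limma called 0 of 97 (against 0.216% of all genes, 0.0891% higher and 0.127% lower), with 17 at an unadjusted p under 0.05, 0 by edgeR and 3 by DESeq2. The cardiomyocyte member was Gm26835 (1.28 ± 0.248, adjusted p = 0.0347), which edgeR did not call. The count of 1 was 0 to 7 under the settings tried. The fibroblast members were Neat1 and Gm16907 (0.75 ± 0.185, adjusted p = 0.0398, lost when any 1 of 7 libraries was left out). Without the libraries over 5% 18S, 3 of them from P1 fibroblasts, 1 fibroblast member was higher and 6 were lower.

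In leukocytes AI662270, AI504432 and Gm26857 rose after MI at both ages. The summed leukocyte markers were higher after MI at both ages as well (3504 to 5545 CPM in P1 sham against 10969 to 12364 CPM in P1 MI, and 4318 to 7729 CPM in P56 sham against 8769 to 11155 CPM in P56 MI libraries), and their part in these rises was not tested. AI662270 went from 19.6, 14.2, 17.5 and 19.4 CPM in P1 sham to 38.9, 49.7, 31.97 and 46.5 CPM in P1 MI and from 15.9, 28.8, 20.9 and 23.1 CPM in P56 sham to 57.2, 53.6, 62.3 and 68.7 CPM in P56 MI libraries. Neither pair of groups overlapped (1.21, adjusted p = 3.4e-05 at P1 and 1.45, adjusted p = 3.7e-06 at P56). AI504432 went from 10.2, 5.99, 5.92 and 6.96 CPM to 19.7, 15.5, 16.98 and 19.2 CPM at P1, without overlap, and from 9.17, 16.4, 11.3 and 10.7 CPM to 39.8, 14.002, 30.1 and 47.8 CPM at P56, where MI replicate 2 lay inside the sham range (1.27, adjusted p = 0.00214 and 1.33, adjusted p = 0.00093). Gm26857, which overlaps the Src-family kinase gene Lyn on the opposite strand, went from 17.1, 15.6, 11.02 and 16.05 CPM to 39.6, 30.7, 51.5 and 34.5 CPM at P1 and from 16.2, 20.7, 28.6 and 21.1 CPM to 46.6, 28.5, 30.1 and 47.3 CPM at P56, the adult groups overlapping (1.35, adjusted p = 9e-05 and 0.79, adjusted p = 0.00413). Lyn itself had means of 178 and 285 CPM in P1 sham and MI, and of 164 and 277 CPM in P56 sham and MI leukocytes. The leading falls at P1 were Spaar (-1.99), Gm14290 (-1.45), Gm26802 (-1.39, adjusted p = 0.00346), Bvht (-1.24) and Mir143hg (-1.16, adjusted p = 0.00249). The 12 endothelial markers summed to 3991 to 4736 CPM in those P1 sham leukocytes and to 490.3 to 936 CPM after MI, and their part in these falls was not tested.

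After MI at P56 the falls outnumbered the rises in fibroblasts and leukocytes. In fibroblasts 8 of 88 tested members rose and 43 fell (58%, against 50% of all genes, 24.8% higher and 25.2% lower), with a median of -0.44 against -0.03 over all genes. In leukocytes 18 of 98 rose and 45 fell (64.3%, against 59.5% of all genes, 30.7% higher and 28.8% lower). Of the 24 members highest in cardiomyocytes 20 fell and 1 rose there, and of the other 74 members 25 fell and 17 rose. The cardiomyocyte markers in these leukocyte libraries went from 74987 to 205982 CPM in sham to 5188 to 19036 CPM after MI, and their part in the falls was not tested. In endothelial cells 7 of 94 rose and 15 fell (23.4%, against 20.4% of all genes, 12.5% higher and 7.88% lower), and 5 and 20 with quantile normalization. In cardiomyocytes 3 of 88 rose and 4 fell (7.95%, against 9.69% of all genes, 8.66% higher and 1.03% lower). The split was 2 and 5 with median-of-ratios scaling, 0 and 4 with quantile normalization, and 7 and 13 without P56 MI replicate 3. The 3 were Gm22, AI662270 and 5330426P16Rik and the 4 were Gm34302, AW112010, 2900076A07Rik and BC002059. Without 1 of 4 other P56 cardiomyocyte libraries (sham 1 or 2, MI 1 or 4) 2 or 3 were called. Median-of-ratios scaling and quantile normalization moved the median over all genes in cardiomyocytes from 0.08 to -0.02 and -0.04. Of the members called higher there, Gm22 and 5330426P16Rik were highest in fibroblasts and AI662270 in leukocytes. Fibroblast markers in these cardiomyocyte libraries summed to 379 to 1118 CPM in P56 sham and 1591 to 3682 CPM in P56 MI. Leukocyte markers summed to 49.3 to 206 and 298 to 726 CPM, and the part of both in these rises was not tested.

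The largest falls in P56 fibroblasts were those of E130102H24Rik (given above), AW112010, Gm15675 (-1.56, adjusted p = 0.00191), F730311O21Rik (-1.53, adjusted p = 0.00059) and Lincpint. Lincpint went from 53.4, 57.2, 60.4 and 61.6 CPM in sham to 16.7, 35.2, 17.7 and 17.4 CPM in MI libraries (-1.47 ± 0.2002, adjusted p = 2e-05). AW112010 went from 18.2, 12.2, 15.9 and 19.1 CPM to 4.66, 8.43, 4.19 and 2.46 CPM (-1.72 ± 0.259, adjusted p = 5.3e-05). No MI library reached a sham library for either gene, and MI replicate 2 was the highest MI library for both. AW112010 was also lower after MI at P56 in endothelial cells (-0.73, adjusted p = 0.00237), cardiomyocytes (-1.22, adjusted p = 0.0127) and leukocytes (-0.63, adjusted p = 0.0218), the last 2 calls being lost when single libraries were left out. Lincpint in endothelial cells did not pass the test (-0.27 ± 0.175, adjusted p = 0.291).

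The rises in P56 fibroblasts were led by Gm26802 and AI427809. Gm26802 went from 0, 0.0435, 0.0576 and 0 CPM in sham to 2.67, 0.479, 1.99 and 6.01 CPM in MI libraries (2.34 ± 0.411 on the log2(CPM + 0.5) scale, adjusted p = 0.00021). The 4 MI libraries were far apart, with replicate 2 the lowest and replicate 4 the highest, and all stayed below the P1 sham libraries. Its neighbour Fosb had means of 18.8 CPM in P56 sham and 160.1 CPM in P56 MI fibroblasts. AI427809 went from 0.711, 2.13, 1.32 and 1.499 CPM to 3.78, 3.69, 5.78 and 3.56 CPM (1.32 ± 0.2201, adjusted p = 0.00013). Gm22, named Zfp469 in RefSeq, had a mean of 1.20 CPM in P56 sham and 11.05 CPM in P56 MI fibroblasts, its only group at 10 CPM, and is given without a test. Beside these values, the 12 fibroblast markers summed to 30157 to 41624 CPM in P56 sham and 56729 to 81462 CPM in P56 MI fibroblasts, and the cardiomyocyte markers to 2824 to 5961 and 245 to 1049 CPM; their part was not tested.

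In P56 endothelial cells Pvt1, 47612 bases from the growth gene Myc, rose after MI, from 2.07, 2.01, 1.01 and 1.79 CPM to 5.17, 4.75, 6.07 and 5.54 CPM (1.43 ± 0.1496, adjusted p = 2e-05). The MI libraries were all above the sham libraries and partly above the P1 sham libraries, 4.41, 4.52, 4.803 and 4.72 CPM. Pvt1 had fallen with age by 1.23 ± 0.1496 (adjusted p = 2.1e-06), a comparison that shares the P56 sham libraries. Myc had means of 27.4 CPM in P1 sham, 1.47 CPM in P56 sham and 12.0 CPM in P56 MI endothelial cells. AU020206 fell after MI from 24.1, 44.03, 44.4 and 42.3 CPM to 10.7, 32.1, 20.8 and 11.996 CPM, with MI replicate 2 inside the sham range (-1.11, adjusted p = 0.00937, lost when only the groups compared were fitted). Mir143hg (Carmn), known from vascular smooth muscle, fell from 20.7, 23.6, 23.4 and 25.98 CPM to 12.6, 13.8, 10.5 and 10.99 CPM without overlap (-0.94 ± 0.209, adjusted p = 0.00457). The 10 mural cell markers summed to 3204 to 4312 CPM in the sham and 1493 to 2269 CPM in the MI libraries, and to 1049.8 to 1223 CPM in P1 sham endothelial cells; their part was not tested.

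Members highest in cardiomyocytes also moved in the sorted populations. In leukocytes Gm34302 held 0.0778, 0.126, 0.0432 and 0.112 CPM in P1 sham, 26.002, 14.003, 9.22 and 13.7 CPM in P56 sham and 2.08, 1.34, 1.495 and 0.393 CPM in P56 MI libraries. Gm5532 held 1.28, 1.21, 1.297 and 1.68 CPM, 55.8, 44.2, 25.9 and 36.1 CPM and 6.01, 4.35, 5.43 and 0.905 CPM. For both, the P56 sham libraries were above both other groups; Gm34302 fell after MI at P56 by 3.15 (adjusted p = 5.4e-07) and Gm5532 by 3.29 (adjusted p = 3.4e-06). In endothelial cells Gm34302 (-1.63, adjusted p = 0.00013) and Gm5532 (-1.44, adjusted p = 0.00141) fell as well, while the cardiomyocyte markers there summed to 9155 to 20857 CPM in P56 sham and 3873 to 8572 CPM in P56 MI libraries. In cardiomyocytes Gm5532 held 15.02, 10.7, 9.86 and 9.09 CPM in P1 sham, 97.8, 193, 105 and 118 CPM in P56 sham and 38.7, 70.2, 189.8 and 43.1 CPM in P56 MI libraries, replicate 3 being the only MI library inside the sham range (-0.85, adjusted p = 0.159). As a percent of the P56 sham cardiomyocyte median, the summed cardiomyocyte markers stood at 47.5% in P56 sham leukocytes, 7.33% in endothelial cells and 2.04% in fibroblasts. The 24 members highest in cardiomyocytes stood at 5.07% to 150% in leukocytes (median 31.5%), 17 of them below the markers, and at 1.18% to 196% in endothelial cells (median 15.0%), 8 of them below. Gm34302 was the lowest in both. The part of cardiomyocyte RNA in the leukocyte and endothelial falls of these members was not tested.

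**Figure D5:**
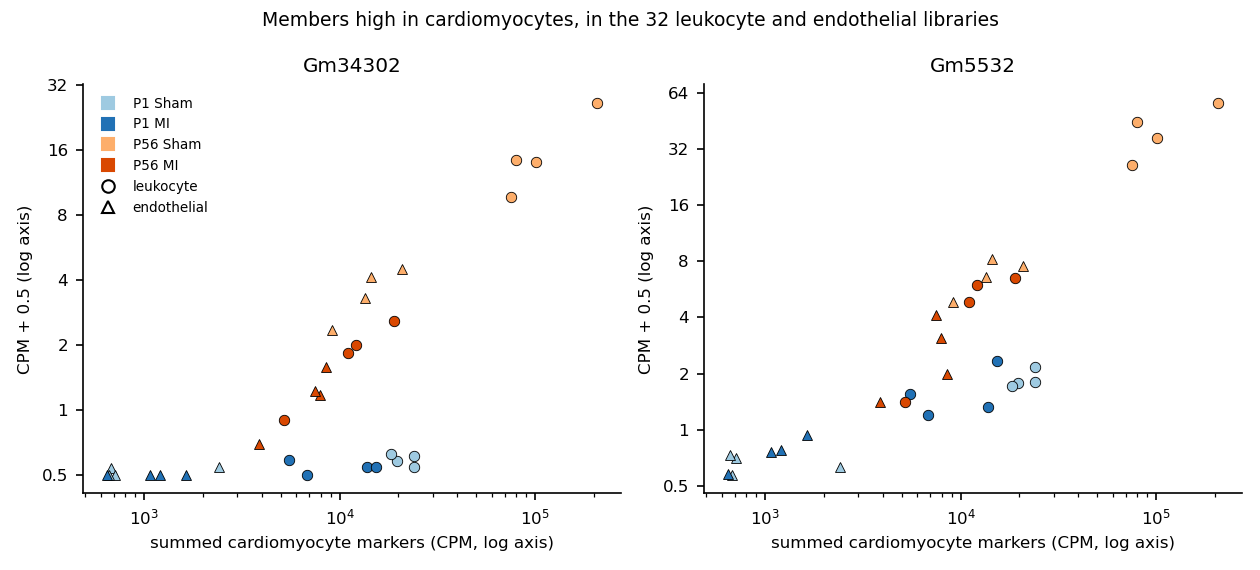
CPM of Gm34302 and Gm5532 against the summed CPM of 14 cardiomyocyte markers (log axes) in the 32 leukocyte and endothelial libraries. The P56 sham leukocyte libraries, with marker sums of 74987 to 205982 CPM, lie at the upper right, and the P56 MI leukocyte libraries (5188 to 19036 CPM) lie lower on both axes.

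The MI change was also compared between the ages. In leukocytes it was higher at P56 for 16 of 95 tested members and lower for 23 (41.1%, against 45.2% of all genes, 23.7% higher and 21.5% lower). In fibroblasts it was higher for 5 of 83 and lower for 33 (45.8%, against 31.7% of all genes, 16.2% higher and 15.5% lower), with 25 called without P56 sham replicate 4. In endothelial cells it was higher for 4 of 91 and lower for 4 (8.79%, against 5.41% of all genes, 3.39% higher and 2.02% lower), with 17 called without P56 MI replicate 2 and 5 without P1 sham replicate 2 or 3. In cardiomyocytes limma called 0 of 84 (against 1.75% of all genes, 1.69% higher and 0.0582% lower), with 11 at an unadjusted p under 0.05, 0 by edgeR and 1 by DESeq2, but 2 higher and 10 lower without P56 MI replicate 3. The largest differences in fibroblasts were Gm26802 (2.49 ± 0.581, adjusted p = 0.00447), with P1 MI libraries at 7.96, 11.4, 19.6 and 6.72 CPM against the P1 sham values given above, and Lincpint (-2.04 ± 0.283, adjusted p = 8.1e-05), with P1 MI libraries at 1.202, 0.9104, 1.35 and 0.7596 CPM. In leukocytes they were Yam1 (2.36) and Gm26917 (2.08) upward and Gm5532 (-3.03) and Gm34302 (-3.03) downward, the last not called by edgeR. In endothelial cells the differences of Pvt1 (1.09 ± 0.212, adjusted p = 0.00958) and Snhg12 (1.05 ± 0.194, adjusted p = 0.00802) were upward. These differences share all 4 groups with the changes given before and are not separate evidence.

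The host of let-7d, 6720427I07Rik, moved in opposite directions with age. It held 17.3, 15.2, 15.4 and 18.3 CPM in P1 sham and 41.4, 30.5, 32.6 and 41.2 CPM in P56 sham fibroblasts, and 35.4, 16.5, 22.1 and 27.3 CPM and 5.46, 12.8, 11.8 and 12.1 CPM in cardiomyocytes. It rose by 1.11 (adjusted p = 5e-06) in fibroblasts and fell by 1.24 (adjusted p = 0.0161) in cardiomyocytes. Gm15713, which overlaps the repressor gene Zbtb20 on the opposite strand, held 2.62, 3.11, 3.39 and 5.31 CPM in P1 sham and 21.6, 20.7, 23.02 and 17.7 CPM in P56 sham fibroblasts (2.40 ± 0.236, adjusted p = 1.6e-07).

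Cyrano (1700020I14Rik), known for its pairing with miR-7, did not pass the test in cardiomyocytes with age or after MI. Its libraries held 450.0, 330.2, 254 and 286 CPM in P1 sham, 386, 423, 321 and 307 CPM in P56 sham and 86.4, 178, 567 and 157 CPM in P56 MI. In the last group 3 libraries lay below every sham library and replicate 3 lay above all of them (-0.89 ± 0.369, adjusted p = 0.144).

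In the annotation, 100 of the 106 members were found in GENCODE M21, which now calls 78 of them lincRNA, 10 antisense and 3 protein-coding. Of these, 20% had a longest transcript of a single exon, against 9.76% of the other lincRNAs of the table, and the median spliced length of the longest transcript was 2938.5 against 1726 bases. By GENCODE, snoRNAs lay in 6 members (5.66%, against 0.502%) and miRNAs in 9 (8.49%, against 2.17%). Members overlapped a protein-coding gene on the opposite strand in 25.5% of cases (34.1%) and began divergently within 1000 bases of one in 9.43% (18.7%). The nearest protein-coding gene was highest in the same population for 57 members (53.8%, against 45.2%). These shares are descriptions of a set chosen by level and were not tested. Where a member overlaps another gene, as Gm26857 with Lyn or Gm15713 with Zbtb20, the 2 signals can be told apart only if the counting used strand, a setting not given in the sources used here.

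Just inside the level rule were 6230415J03Rik (10.04 CPM in its highest group) and Gm26860 (10.2 CPM), and just outside were Gm26764 (9.98 CPM) and 1010001N08Rik (9.92 CPM). A rule of 5 CPM would have taken 197 genes and a rule of 20 CPM 56.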

How the data were processed

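Gene-level values for 64 RNA-seq libraries were used as the authors deposited them. Per the labels' protocols, total RNA was depleted of ribosomal RNA (Ribo-Zero Gold), made into stranded libraries (TruSeq Stranded Total RNA) and read as single-end reads of 50 bases. As tools, the submitters' processing notes list HTSeq, STAR, edgeR and Trimmomatic, and as builds mm10, GRCm38 and GRCh38; versions, the role of each and the strand setting of the counting are not given in the sources used here. The deposited signal, which the authors named CPM, is the read count of a gene times a constant of the library: all values were whole reads within 0.01, and the column sums ran from 776590 to 2627530, so the values are scaled counts that do not sum to a fixed total. The scale was kept for all levels, and 3 reads stood for 0.102 to 0.409 CPM. ATAC-seq named for the series was not analysed here.

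In each population limma (version 3.58.1, R 4.3.3, with a variance trend) was fitted to log2(CPM + 0.5) of the 16 libraries, keeping genes that reached 1 CPM in 4 or more, with Benjamini-Hochberg adjustment over all genes tested. The contrasts were P56 sham minus P1 sham, MI minus sham at P1 and at P56, and the P56 change minus the P1 change. A member was tested in a contrast only where a group outside it reached 10 CPM, since the level had chosen the member. This did not remove the choice where that group was of the same age or the same cells. The members and the gene lists were chosen with earlier results of these data known. Members were named by a rule: the 6 with the highest mean over groups, those on the noncoding RNA lists, the 4 largest called rises and falls of each contrast with no overlap between libraries (for the difference between ages, with or without), the 4 of each population with the widest gap to the next, and those within 1 CPM of the level rule, with coding neighbours within 10000 bases; 1810058I24Rik, 2310015A10Rik, 4632404H12Rik, 5330426P16Rik, 6720427I07Rik, A430046D13Rik, Gm13833 and Gm15675 were chosen after their values were seen. Alternatives were another pseudocount, filter or scaling, a replicate block, only the groups compared, and each library left out; edgeR (4.0.16) and DESeq2 (1.42.0) on the recovered reads and the fit without libraries over 5% 18S were added after seeing the data. Scripts were tested on simulated data. Within a population, replicate numbers did not pair the samples across age or operation (correlations of same-numbered deviations from -0.43 to 0.36). Whether same-numbered libraries of different populations came from the same hearts was not examined, so calls shared by populations may not be independent. None of the 96 pairs of libraries within a group were identical.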

Additional observations from a re-analysis of the deposited data

Results flagged for a closer look

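Single libraries stood apart from the other 3 of their group in 6 of 144 combinations of a member and a group. The measure was the gap to the nearest library as a share of the group's range. Chance gives about 1 in 20, so the count of 6 was no more than chance would give. Malat1 in P56 MI cardiomyocytes was 11222 CPM in replicate 3, against 1592 to 2545 CPM in the others (ratio 0.901). Lincpint in P56 MI fibroblasts was 35.2 CPM in replicate 2, against 16.7 to 17.7 CPM (0.944). Snhg6 in P56 MI fibroblasts was 19.7 CPM in replicate 1, against 14.9 to 15.5 CPM (0.881). AI427809 was 8.58 CPM in P1 MI fibroblast replicate 2, against 11.8 to 12.3 CPM (0.868), and 5.78 CPM in P56 MI fibroblast replicate 3, against 3.56 to 3.78 CPM (0.899). AU020206 in P56 sham endothelial cells was 24.1 CPM in replicate 1, against 42.3 to 44.4 CPM (0.896).

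The MI change differed between the ages by limma's test of the difference itself (P56 minus P1, log2). In fibroblasts the difference was upward for Gm26802 (2.49, adjusted p = 0.00447), E230013L22Rik (0.97, adjusted p = 0.0268, lost under 3 settings and without either of 2 libraries), Snhg12 (0.88, adjusted p = 0.00117) and Gm37233 (0.76, adjusted p = 0.0116). It was downward there for Lincpint (-2.04, adjusted p = 8.09e-05), AW112010 (-1.77, adjusted p = 0.002), E130102H24Rik (-1.64, adjusted p = 0.000225) and Neat1 (-1.49, adjusted p = 0.00426). In leukocytes it was upward for Yam1 (2.36, adjusted p = 0.000752), Gm26917 (2.08, adjusted p = 0.00461), Mirg (1.91, adjusted p = 0.00342) and Gm26802 (1.78, adjusted p = 0.00713). It was downward there for Gm5532 (-3.03, adjusted p = 0.000392), Gm34302 (-3.03, adjusted p = 4.3e-05), Gm17281 (-2.18, adjusted p = 0.000145) and 2900076A07Rik (-1.83, adjusted p = 0.000668).

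In endothelial cells the difference was upward for Yam1 (1.27, adjusted p = 0.039), Gm26917 (1.22, adjusted p = 0.0206), Pvt1 (1.09, adjusted p = 0.00958) and Snhg12 (1.05, adjusted p = 0.00802). It was downward there for Gm5532 (-1.64, adjusted p = 0.02), Gm34302 (-1.58, adjusted p = 0.012), Mir143hg (-1.25, adjusted p = 0.0218) and Gm26981 (-0.58, adjusted p = 0.03). The endothelial calls of Gm34302 and Gm5532 were lost with edgeR, that of Gm34302 also with DESeq2, and those of Yam1, Gm26917, Mir143hg and Gm26981 when single libraries were left out.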

How the results depend on the processing

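Of 323 called values of named members, 2754 of 3024 refits without 1 library kept the call. The other settings lost 2 to 26 of the calls that they tested, most without the libraries over 5% 18S. The filter at 5 CPM tested only 254 of the 323 values (2 lost), and the fit of only the groups compared tested 268. Bvht in cardiomyocytes with age reversed from -0.41 to 0.17 with quantile normalization; the cause was not tested. Adding a 2-fold change, with age 39 fibroblast, 36 leukocyte and 31 endothelial members remained, after MI at P56 15, 26 and 5, after MI at P1 15 in leukocytes and 1 in fibroblasts, and 17 for the difference between ages in fibroblasts. For MI at P1 in cardiomyocytes (1 call) the count was 0 with a pseudocount of 0.1, a filter at 5 CPM, the replicate block or edgeR, 2 with a pseudocount of 1 or without the 18S libraries, 4 with quantile normalization, 5 with DESeq2 and 7 with only the groups compared. For MI at P56 there (7) it was 4 with quantile normalization, 0 with only the groups compared, 13 with DESeq2 and 3 without the 18S libraries. A filter at 5 CPM left 40 with age there, as fewer genes were tested, and DESeq2 called 1 for the difference between ages. For MI at P1 in fibroblasts (2) the count was 1 with a filter at 5 CPM or the replicate block and 7 without the 18S libraries. In endothelial cells at P1 (0) it was 1 with only the groups compared and 3 with DESeq2. Leaving out 1 library at a time gave, in cardiomyocytes, 58 to 67 with age, 0 to 2 for MI at P1 (each library but P1 sham 4 moved it), 2 to 20 for MI at P56 and 0 to 12 for the difference. In fibroblasts it gave 65 to 70, 0 to 2 (each but P1 MI 4), 45 to 54 and 25 to 41. In leukocytes it gave 65 to 68, 32 to 38, 53 to 61 and 36 to 41, and in endothelial cells 64 to 70, 0 to 1 (1 without P1 sham 4 or P1 MI 4), 16 to 29 and 5 to 17. The replicate block lost 16 of the 323 called values. The numbers did not pair the samples within a population. A level rule of 5 CPM gave 197 members, of which 76 were highest in endothelial cells, 45 in cardiomyocytes, 42 in fibroblasts (below cardiomyocytes, unlike at 10 CPM) and 34 in leukocytes; 20 CPM gave 56, with 18, 11, 18 and 9 in the same order. Depth limits members near 3 reads (0.102 to 0.409 CPM), such as Gm26802 in adults and Gm34302 in neonatal leukocytes and endothelial cells.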
